A study of Mus musculus with 9 samples.

Results

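The guanylin axis and the ion transporters of the intestinal epithelium were followed in the jejunum of mice. The set has 9 genes, chosen by name with earlier results of these data known: Guca2a, Guca2b, Gucy2c, Cftr, Slc9a3, Slc26a3, Slc26a6, Slc12a2 and Atp1b1. Of the 15674 genes named on the array, 7 belonged to it: 6 were found by symbol, and Guca2a was found through its RefSeq accession under the older symbol Guca2. Gucy2c and Slc9a3 were not analysed here.

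The samples were 9 jejunum segments of 2 cm, each from 1 male of the outbred strain OF1, 7 weeks old and from generation 3 of a feeding trial. Feed B was given to mice 7, 8 and 10, feed K to mice 1, 3 and 4, and feed G to mice 4, 8 and 11. The labels do not say what the letters stand for and name none of the feeds as a control, and they name no mutation and no drug. By the study's methods the segment was centred on the midpoint of the small intestine, food was withdrawn before sampling, and the time of day of sampling was not randomised. Whole tissue was used, so fewer cells of a type and less RNA per cell cannot be told apart.

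Guca2a encodes guanylin and Guca2b uroguanylin, a pair of small peptides that epithelial cells release into the gut lumen. Both bind guanylate cyclase C, the product of Gucy2c and also the receptor of the heat-stable enterotoxin that causes secretory diarrhoea. The cyclic GMP it makes activates the protein kinase encoded by Prkg2, which opens the chloride channel Cftr and holds back the sodium-proton exchanger Slc9a3, so that salt and water are kept in the lumen. Slc26a3 and Slc26a6 exchange chloride for bicarbonate in the brush border, Slc12a2 loads chloride through the basolateral membrane, and Atp1b1 is the beta subunit of the sodium-potassium pump that drives all of these steps.

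Upstream sequences are shown for both peptide genes, which are neighbours on chromosome 4 with 0 annotated genes between them, for Slc26a3 and for Atp1b1, the member with the clearest difference between feeds. Each is the 250 bases before the annotated start in RefSeq, build GRCm38.p6, written 5′ to 3′ on the strand of the gene. Capitals mark 5 short words that were searched on either strand. The core of many sites of HNF1 factors was searched as GTTAAT, and the site of GATA factors as AGATAA. The GC box was searched as GGGCGG, the TATA box as TATAAA, and the E-box, which reads the same on both strands, as CACGTG. No pair of different words overlapped in these windows.
Guca2a (chr4:119637482-119637731, plus strand): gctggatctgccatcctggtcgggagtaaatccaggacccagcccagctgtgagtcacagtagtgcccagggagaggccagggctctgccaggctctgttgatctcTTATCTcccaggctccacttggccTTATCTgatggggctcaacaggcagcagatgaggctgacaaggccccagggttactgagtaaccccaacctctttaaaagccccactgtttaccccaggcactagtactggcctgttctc
Guca2b (chr4:119658946-119659195, minus strand): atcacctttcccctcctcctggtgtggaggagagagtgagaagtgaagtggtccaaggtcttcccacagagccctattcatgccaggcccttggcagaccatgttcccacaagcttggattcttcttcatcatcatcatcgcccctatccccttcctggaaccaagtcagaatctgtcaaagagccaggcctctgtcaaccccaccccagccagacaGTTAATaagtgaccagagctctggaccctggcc
Slc26a3 (chr12:31437969-31438218, plus strand): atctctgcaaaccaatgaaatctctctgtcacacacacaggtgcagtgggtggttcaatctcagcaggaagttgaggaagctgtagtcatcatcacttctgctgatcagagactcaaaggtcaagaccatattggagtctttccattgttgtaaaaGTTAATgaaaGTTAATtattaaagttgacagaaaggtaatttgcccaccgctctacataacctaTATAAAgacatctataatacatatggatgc
Atp1b1 (chr1:164458356-164458605, minus strand): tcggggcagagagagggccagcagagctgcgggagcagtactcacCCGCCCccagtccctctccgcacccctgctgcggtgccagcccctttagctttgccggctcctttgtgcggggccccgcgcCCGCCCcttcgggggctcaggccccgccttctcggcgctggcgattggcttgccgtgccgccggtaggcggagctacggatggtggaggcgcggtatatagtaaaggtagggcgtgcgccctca
The peptide genes held different words. Guca2a had 2 GATA words on the opposite strand, the first bases 144 and 120 bases before the start, and AGATAA was in 9.99% of the 32851 RefSeq promoter windows of this length. Guca2b had 1 GTTAAT, beginning 33 bases before the start, and Slc26a3 had 2, at 94 and 84 bases, with a TATAAA at 30 bases. GTTAAT was in 6.43% of all windows and TATAAA in 12.4%. Atp1b1 had 2 GC boxes, a word found in 32.7% of windows, and GC boxes also stood before Cftr, Slc26a6 and Slc9a3. CACGTG, present in 6.02% of windows, was found only in that of Slc9a3 among the 7 member genes with a window. A matching word is a description of the sequence and not a measured site.

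All 7 measured members had 1 probe each and were detected on all 9 arrays, which means that the spot's signal stood at least 3 times above its noise. Their signal-to-noise ratios ran from 14.0 for Slc26a3 to 119 for Guca2a. Values below are log2 of the signal intensity after quantile normalization, so a step of 1 is a doubling. Levels of different probes are not compared, although sums over a marker list add them. The markers fitted whole intestinal tissue. All 9 enterocyte markers with a probe were detected on every array, Fabp2 among them. So were 5 smooth muscle, 4 adipocyte and 3 lymphoid markers, among them Actg2, Cfd and Igj, and the red blood cell marker Hba-a1. None of 5 pancreas and none of 4 gastric or Brunner gland markers was detected on more than 2 arrays. These lists do not place the segment along the small intestine, and distal markers, given below, were strong in single mice. The share of probes detected was 33.7% to 43.6% on feed B, 41.2% to 47.6% on feed K and 46.4% to 48.1% on feed G.

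The moderated F test of limma over the 3 feeds, with Benjamini-Hochberg adjustment over 9652 genes, called none of the 7 members and none of all genes, which is 0% of them. At an unadjusted p under 0.05 it found 518 genes, 5.37% of those tested, and of the members Atp1b1. An exact permutation test over the 280 splits of the mice called 0 of 9556 genes after adjustment and had 486 with p under 0.05, where the smallest p it could give was 0.00357. With that floor a gene can pass the adjustment only if a very large number of genes reach it together. This 0 therefore adds nothing to that of limma. With 3 mice per feed the smallest exact p for 2 feeds is 0.1 and no single pair could pass, so the tests of pairs come from the limma fit. The mice are separate animals, and the p-values judge differences between feeds against the spread between mice.

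Guca2a, the guanylin gene, gave log2 signals of 16.73, 16.97 and 17.34 in mice 7, 8 and 10 of feed B. On feed K it was 16.37, 17.00 and 16.94 in mice 1, 3 and 4, and on feed G it was 16.82, 16.73 and 17.66 in mice 4, 8 and 11. The feeds overlapped throughout, and the extremes were single mice, mouse 11 of feed G at the top and mouse 1 of feed K at the bottom, 2.44-fold apart. Means were 17.01 ± 0.30 (SD, n = 3) on feed B, 16.77 ± 0.34 on feed K and 17.07 ± 0.51 on feed G. The difference of feed K from feed B was -0.24 (95% interval -0.96 to 0.48) and that of feed G from feed B 0.06 (-0.66 to 0.78), whose upper bound is 1.71-fold.

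Guca2b, the uroguanylin gene, varied most within feed B, where mice 7, 8 and 10 had 15.65, 16.92 and 15.84. The lowest and the highest of all 9 mice were thus on the same feed. Feed K was narrow, with 16.58, 16.75 and 16.64, and feed G had 16.76, 16.58 and 15.97. Mean levels were 16.14 ± 0.69 (SD, n = 3), 16.66 ± 0.09 and 16.44 ± 0.42 on feeds B, K and G. Feed K exceeded feed B by 0.52 with an interval of -0.30 to 1.34, and the F test over feeds gave an unadjusted p of 0.385 in limma. Without mouse 8 of feed B, that p was 0.0278 and the adjusted p 0.689.

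Cftr, the chloride channel of the apical membrane, had 11.38, 11.53 and 10.82 on feed B, 11.22, 11.24 and 11.41 on feed K, and 11.72, 11.34 and 11.18 on feed G. Mouse 10 of feed B was lowest and mouse 4 of feed G highest, and the feeds overlapped. Differences between feeds lay between 0.04 and 0.17, all smaller than their standard error of 0.24. The interval of feed G minus feed B, -0.38 to 0.72, bounds a rise at 1.65-fold.

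Slc26a3, the chloride-bicarbonate exchanger that is lost in congenital chloride diarrhoea, was 11.29, 11.43 and 11.72 on feed B, 11.98, 11.87 and 11.11 on feed K and 11.63, 11.50 and 11.36 on feed G. Feed K held both the highest and the lowest mouse. Slc26a6, the second exchanger, was 11.62, 12.45 and 12.86 on feed B, 12.76, 13.17 and 12.49 on feed K and 12.47, 12.52 and 12.60 on feed G. Its range of 2.93-fold was the widest of the 7 members, set by the low mouse 7 of feed B and the high mouse 3 of feed K. Feed K minus feed B was 0.50 with a standard error of 0.33 for Slc26a6 and 0.17 with 0.26 for Slc26a3, and neither passed the test (adjusted p 0.840 and 0.953 in limma).

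Slc12a2, the sodium-potassium-chloride cotransporter that feeds chloride secretion, was the steadiest member. It was 11.99, 11.85 and 11.81 on feed B, 11.62, 11.86 and 11.66 on feed K and 11.76, 12.19 and 11.63 on feed G. The whole range was 1.49-fold, and the differences between feeds were -0.17, -0.02 and 0.15 for K minus B, G minus B and G minus K.

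**Figure D1:**
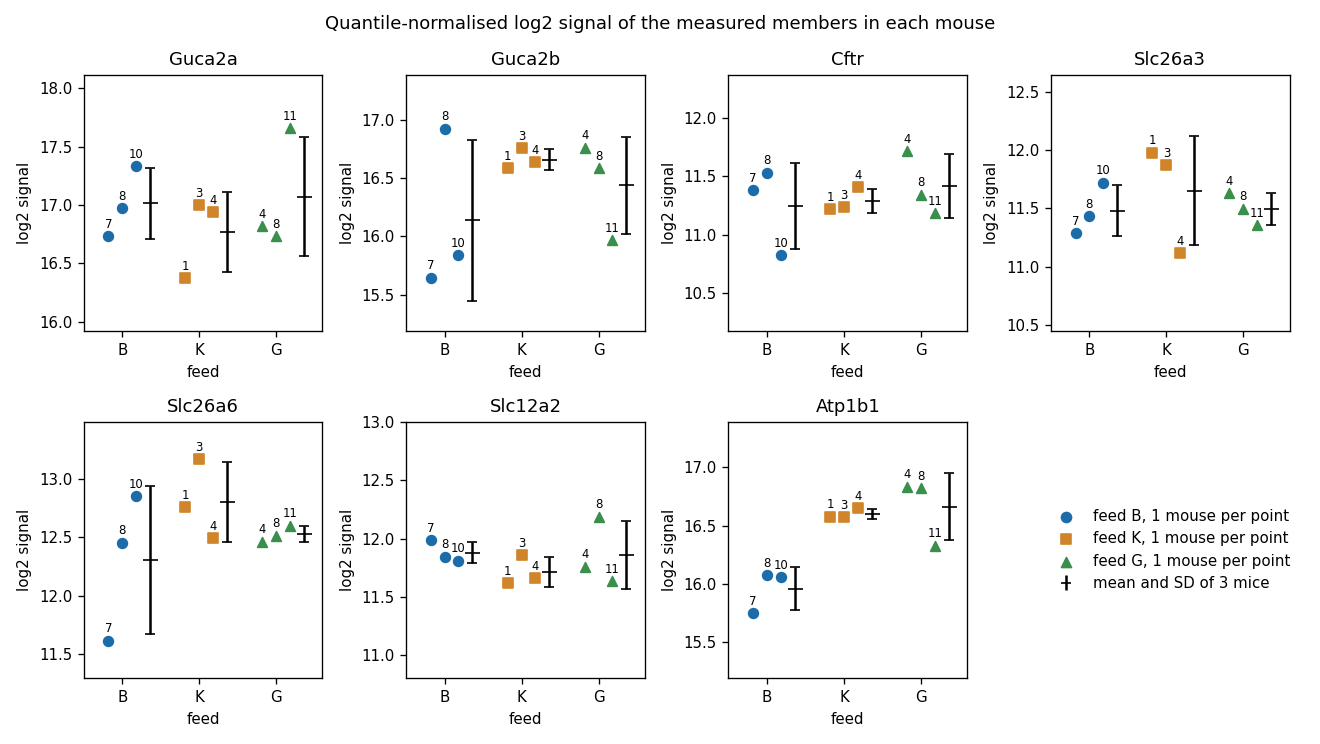
Quantile-normalised log2 signal (vertical axis, 2.2 log2 units in each panel) of the 7 measured members by feed (horizontal axis); each point is 1 mouse with its number, and bars give the mean and SD of 3 mice. For Atp1b1 the 3 mice of feed B lie between 15.75 and 16.07, below all 6 others, and in the other panels the feeds overlap.

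Atp1b1 was the only member whose feeds did not all overlap. Its log2 signal was 15.75, 16.07 and 16.06 in mice 7, 8 and 10 of feed B. On feed K it was 16.58, 16.57 and 16.65 in mice 1, 3 and 4, and on feed G 16.83, 16.82 and 16.33 in mice 4, 8 and 11. All 3 mice of feed B were below all 6 others, while feeds K and G overlapped. The same separation was seen in 178 of 9556 genes, 1.86%.

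The mean of Atp1b1 was 15.96 ± 0.18 (SD, n = 3) on feed B, 16.60 ± 0.04 on feed K and 16.66 ± 0.29 on feed G. Feed K was 1.56-fold above feed B (log2 difference 0.64, SE 0.20, unadjusted p = 0.0126, adjusted p = 0.773 in limma) and feed G was 1.62-fold above it (0.70, SE 0.20, unadjusted p = 0.00810, adjusted p = 0.698). Higher signals at an unadjusted p under 0.05 were given by 4.34% of genes for K over B and 3.84% for G over B. The difference therefore failed the correction over all genes. Over the 3 feeds the exact permutation test gave p = 0.0321 before adjustment. The median difference of all genes was 0.05 for K over B and 0.06 for G over B. Scaling every array to its median moved those medians to 0.41 and 0.53, and the differences of Atp1b1 to 0.97 and 1.27, which is 0.57 and 0.74 above the median of all genes against 0.59 and 0.64 before. Leaving out mouse 7 of feed B raised the unadjusted p of the F test from 0.0145 to 0.0631.

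**Figure D2:**
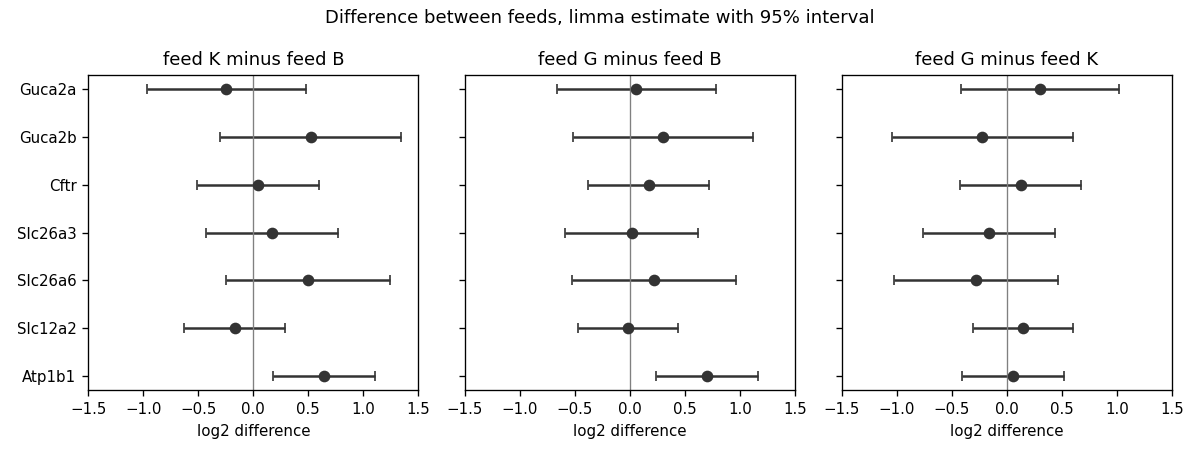
Differences in log2 signal between feeds for the 7 members (points, limma estimates; bars, 95% intervals; the vertical line marks no difference). For Atp1b1 the intervals of K minus B, 0.18 to 1.10, and of G minus B, 0.24 to 1.16, do not reach 0, without correction for multiple testing.

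Among the 5886 other genes detected on all 9 arrays, the gene most like Atp1b1 over the mice was Slc5a1, the sodium-glucose cotransporter whose sodium the pump removes, with Pearson's r = 0.97 over the 9 mice. Slc5a1 gave 15.03, 15.54 and 15.59 on feed B, 16.60, 16.49 and 16.49 on feed K and 16.68, 16.62 and 15.72 on feed G. The 3 mice of feed B were lowest, with mouse 11 of feed G next. Slc5a1 was chosen for its likeness to Atp1b1, so its r is a description and its similar order of mice follows from that choice.

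Other measures were set beside Atp1b1. Dbp, a transcription factor of the circadian output, was 10.56, 12.46 and 9.98 on feed B, 12.69, 13.14 and 13.57 on feed K and 13.99, 13.46 and 12.73 on feed G. Feed B was again below all others. Of the 14 clock genes tested, 10 had an unadjusted F p under 0.05, and 7 were higher and 2 lower than on feed B in each of feeds K and G at an unadjusted p under 0.05, with 0 passing after adjustment in limma. Genes that went down included Nfil3, a repressor, with means of 10.07, 9.46 and 8.93 on feeds B, K and G, and Arntl, a core activator, with 9.77, 9.01 and 7.66. The summed signal of all 17 listed clock genes was, over both directions together, 10851 to 16854 on feed B, 18682 to 27409 on feed K and 23990 to 31523 on feed G, with Bhlhe41 detected on 0 arrays. A sum of linear signals weighs genes by their signal. Dbp, with the highest mean of the clock list, therefore counts most in it, and Fabp2 in the enterocyte sum below. The clock sum thus largely repeats the values of Dbp. The share of detected probes was lowest in mice 8 and 7 of feed B, 33.7% and 36.7%. Mouse 10 of feed B had 43.6%, above mice 1 and 4 of feed K with 42.1% and 41.2%. The summed signal of the 9 enterocyte markers was 2465310 to 4014170 on feed B, 3363080 to 3928690 on feed K and 3138590 to 4048570 on feed G, and these ranges overlapped. Gene by gene, all 9 enterocyte markers had a higher mean on feed K than on feed B, by 0.17 to 1.27 with a median of 0.33 against 0.05 for all genes, and 6 of 9 on feed G, by -0.62 to 0.49 with a median of 0.12 against 0.06. None had an unadjusted p under 0.05. Vil1, the microvillus protein villin, was 18.04 to 18.20 on feed K and 17.70 to 17.95 on feed G. All of feed K was above all of feed B, with 17.63 to 17.89, as in 6.26% of all genes. The other enterocyte markers overlapped between feeds B and K. The part of daytime, of array sensitivity and of the share of enterocytes in the difference was not tested.

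**Figure D3:**
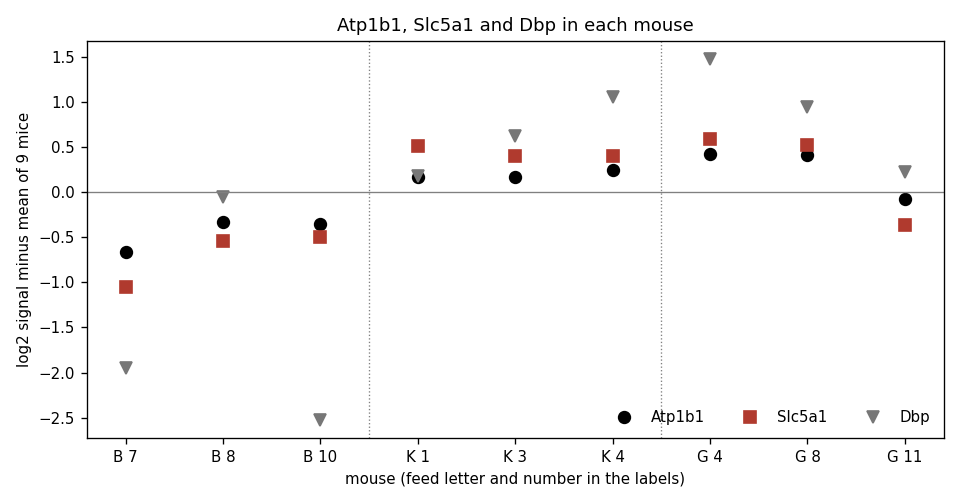
Log2 signal of Atp1b1, Slc5a1 and Dbp in each of the 9 mice, as the difference from that gene's mean over the mice (vertical axis); dotted lines part the feeds. Atp1b1 and Slc5a1 lie below 0 in the 3 mice of feed B and in mouse 11 of feed G and above 0 in the other 5. Slc5a1 was chosen for its likeness to Atp1b1.

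The members differed in how much they varied between mice. The SD of log2 signal over the 9 mice was 0.18 for Slc12a2, 0.25 for Cftr, 0.28 for Slc26a3, 0.37 for Guca2a, 0.38 for Atp1b1, 0.42 for Slc26a6 and 0.46 for Guca2b. Among the 5887 genes detected on all 9 arrays the median SD was 0.29, and the members stood from the 16.4 percentile for Slc12a2 to the 80.4 percentile for Guca2b. For 3 of the 7 members, Cftr, Slc26a3 and Slc12a2, the highest mouse was within 2-fold of the lowest, against 57.9% of those genes. When the SD was pooled within feeds, that of Atp1b1 dropped to 0.20, while the others lay between 0.19 and 0.47.

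Guca2a was highest in 2 mice that also had strong markers of the distal small intestine. Fabp6, the ileal bile acid binding protein, gave a log2 signal of 19.51 in mouse 11 of feed G, 17.84 in mouse 10 and 15.81 in mouse 7 of feed B, from 8.10 to 12.19 in 5 other mice, and it was not detected in mouse 8 of feed B. Slc10a2, the ileal bile acid transporter, was likewise highest in mouse 11 of feed G with 12.66 and mouse 10 of feed B with 12.05. Those mice were also the pair with the most Guca2a, 17.66 and 17.34. Mouse 7 of feed B did not follow: it was the third in Fabp6, and its Guca2a of 16.73 was among the lowest.

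The list of distal markers had 5 genes with a probe, of which 3 were detected on all arrays. The summed signal of the list ran from 39329 to 340529 on feed B, 49728 to 54680 on feed K and 31254 to 828888 on feed G. The highest sum was mostly the signal of Fabp6 in mouse 11 of feed G. Fabp1, the liver-type fatty acid binding protein that is weaker in the distal gut, had its lowest value, 16.40, in mouse 11 of feed G. Feeds overlapped in Fabp1 and in the 5 distal markers. In both other proximal markers, however, feed K did not overlap with the other mice, and the directions were opposite: Gata4 was higher on feed K and Slc40a1 lower. The share of all genes with feed K apart from all other mice was not counted. For feed B, all 3 mice lay below all 6 others in 1.86% of genes and above them in 1.02%. Single pairs of feeds, a looser condition, failed to overlap, in a given direction, in 3.68% to 7.36% of genes. Gata4, an intestinal transcription factor, was 10.18 to 10.46 on feed K and 8.57 to 9.96 elsewhere, with adjusted p = 0.729 in the F test of limma (0.0100 unadjusted). Slc40a1, the iron exporter, was 9.39 to 9.50 on feed K and 9.62 to 10.43 elsewhere, with adjusted p = 0.894 in limma (0.0438 unadjusted). The part of the position of the segment in the levels of Guca2a was not tested.

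The 7 members were correlated over the 9 mice with the 6 regional markers detected on every array, which are the proximal markers Slc40a1, Gata4 and Fabp1 and the distal markers Ostb, Nr1h4 and Mep1a. Of these 42 relations, 7 had p under 0.05 in the exact permutation test of Pearson's r, two-sided, and 0 passed after adjustment over the 42. Guca2a rose with Nr1h4, the bile acid receptor, by r = 0.82 (exact p = 0.00842, adjusted p = 0.129) and Spearman's rho = 0.65 (exact p = 0.0666, adjusted p = 0.399). With Mep1a, a brush border metalloprotease, r was 0.81 (exact p = 0.00923, adjusted p = 0.129) and rho 0.75 (exact p = 0.0255, adjusted p = 0.268). Within feeds these r were 0.87 and 0.81.

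Both relations rested on mouse 11 of feed G and mouse 1 of feed K, the mice farthest from the median of Guca2a. Without them r fell to 0.42 for Nr1h4 and 0.44 for Mep1a. The relations held their sign under median scaling, with r = 0.92 and 0.90.

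Guca2b went the other way and followed Fabp1, with r = 0.74 (exact p = 0.0181, adjusted p = 0.190), rho = 0.85 (exact p = 0.00607, adjusted p = 0.128) and r = 0.88 within feeds. Without mice 7 and 10 of feed B r was 0.92, and under median scaling 0.55. Mouse 8 of feed B had the most of both genes, 16.92 for Guca2b and 19.35 for Fabp1, and mice 7 and 10 of feed B and 11 of feed G had the least of both. Guca2b ran against Ostb, a subunit of the basolateral bile acid exporter, with r = -0.71 (exact p = 0.0332, adjusted p = 0.243), rho = -0.75 (exact p = 0.0255, adjusted p = 0.268), r = -0.70 without mice 7 and 10 of feed B, -0.74 within feeds and -0.25 under median scaling.

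Cftr showed the strongest single relation, also against Ostb, with r = -0.87 (exact p = 0.00263, adjusted p = 0.110), rho = -0.87 (exact p = 0.00451, adjusted p = 0.128) and r = -0.87 within feeds. Without mouse 10 of feed B and mouse 4 of feed G r was -0.59. Under median scaling it was -0.06, so this relation depended on the normalization. The remaining relations under 0.05 were with Gata4. Slc26a6 had r = 0.67 (exact p = 0.0368, adjusted p = 0.243), rho = 0.55 and r = 0.53 without mouse 7 of feed B and mouse 3 of feed K. Slc12a2 had r = -0.68 (exact p = 0.0404, adjusted p = 0.243), rho = -0.53 and r = -0.29 without mouse 8 of feed G and mouse 1 of feed K. Under median scaling r was 0.80 for Slc26a6 and 0.31 for Slc12a2, which changed its sign.

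**Figure D4:**
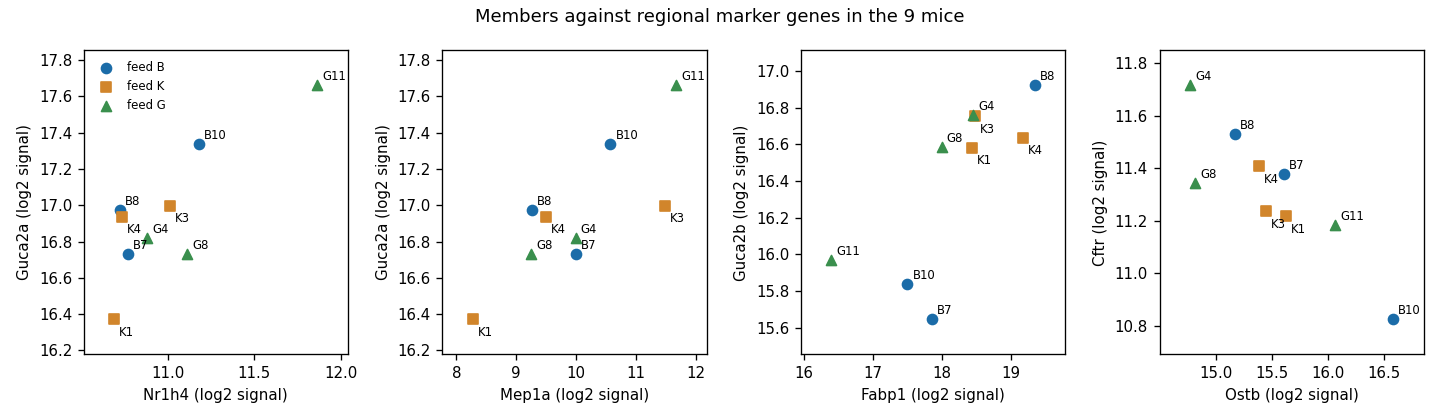
Log2 signals of Guca2a, Guca2b and Cftr (vertical axes) against regional marker genes (horizontal axes); each point is 1 mouse, named by feed letter and number. Mouse 11 of feed G has the highest Guca2a, Nr1h4 and Mep1a and the lowest Fabp1.

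Between the members themselves, 21 pairs were correlated over the 9 mice, and 0 passed after adjustment, with 1 below 0.05 before it. That pair was Guca2b and Atp1b1, with r = 0.66 (exact p = 0.0496, adjusted p = 0.586) and rho = 0.53 (exact p = 0.148, adjusted p = 0.775), and r = 0.72 within feeds. Without mice 7 and 10 of feed B its r was 0.07, so it rested on those mice. The exchangers Slc26a3 and Slc26a6 had r = 0.64 (exact p = 0.0558, adjusted p = 0.586), rho = 0.68 (exact p = 0.0503, adjusted p = 0.412), 0.82 for r without mice 1 and 4 of feed K, and 0.61 within feeds. Guanylin and uroguanylin, although neighbours in the genome, had r = -0.38 (exact p = 0.313, adjusted p = 0.692) and rho = 0.07 (exact p = 0.880, adjusted p = 0.924), and r = -0.17 without mouse 11 of feed G and mouse 1 of feed K. This r turned to 0.23 under median scaling and to -0.04 in the table of assay-normalized signals.

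The signs of these values changed with the scaling. After quantile normalization 10 of the 21 pairs had a positive r, with a median of -0.06. After median scaling 21 of 21 were positive, with a median of 0.67, and 4 pairs passed the adjustment. Cftr with Atp1b1 went from 0.32 to 0.91 and Slc12a2 with Atp1b1 from -0.07 to 0.75.

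**Figure D5:**
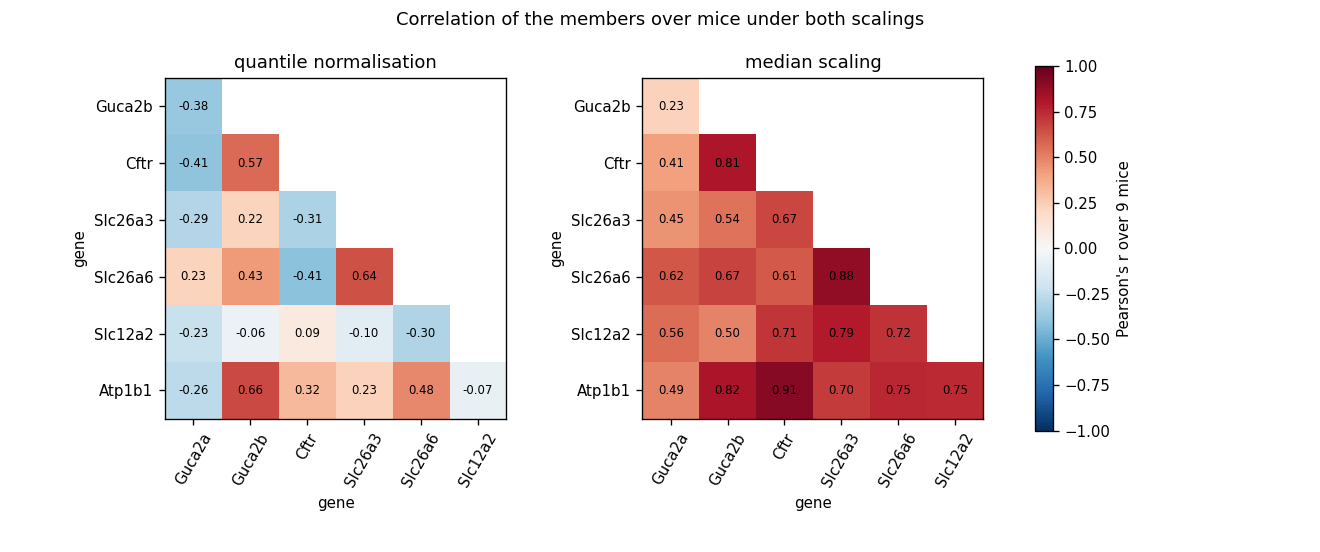
Pearson's r over 9 mice for each pair of members after quantile normalization (left) and after scaling each array to its median (right); colours run from -1 to 1. The left panel holds 11 negative values and the right panel none.

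The genes most like each of the other members over the mice were also sought among the genes detected on all 9 arrays. For Guca2a these were Mrgprf (r = 0.95) and Lamb3 (0.90), the second with 12.96 in mouse 11 of feed G against 8.96 to 10.91 elsewhere. For Guca2b they were 1700108L22Rik (0.96) and Ephx2 (0.96), the soluble epoxide hydrolase. Cftr was most like Acvr2b (0.97), an activin receptor, and Cabc1 (0.97). Slc26a3 came with Ranbp9 (0.92) and Blvra (0.91), the biliverdin reductase, and Slc26a6 with Spag9 (0.96) and 2810407E01Rik (0.95). Slc12a2 was followed by Timp2 (0.90), an inhibitor of matrix metalloproteases, and Lsp1 (0.85), and the second gene for Atp1b1 was AI839920 (0.96). As the highest of 5886 values of r over 9 mice, these carry no test.

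Of 81 further genes of the same pathways, 71 had a probe, 34 were detected on all arrays and 49 were tested. None passed the adjusted F test or any adjusted test of a pair in limma, and 3 had an unadjusted F p under 0.05, which is 6.12% against the 5.37% of all genes. The median difference over the 49 genes was 0.16 for K over B, 0.10 for G over B and -0.05 for G over K, against 0.05, 0.06 and -0.01 for all tested genes. At an unadjusted p under 0.05, 3 were higher and 0 lower in K than in B, 2 higher and 2 lower in G than in B, and 2 higher and 2 lower in G than in K. Over all 9652 genes the shares were 4.34% higher and 1.97% lower for K against B, 3.84% and 1.9% for G against B, and 2.14% and 2.39% for G against K.

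In the signalling list, Prkg2, the kinase that carries the cyclic GMP signal, was 10.57, 11.07 and 10.43 on feed B, 10.90, 11.09 and 11.17 on feed K and 10.97, 10.72 and 9.60 on feed G. Its lowest value was in mouse 11 of feed G, where Guca2a was highest. None of the 2 tested genes of this list had an unadjusted p under 0.05.

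Apical exchange was represented by Slc26a2, a sulfate transporter, the only one of 9 genes with a probe that was detected on every array. It had 13.56, 13.72 and 14.06 on feed B, 13.59, 13.64 and 14.16 on feed K and 13.74, 13.86 and 14.42 on feed G, with adjusted p = 0.938 in the F test of limma. The sodium channel subunit Scnn1g was detected on 0 arrays and Scnn1a on 4.

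Among the scaffolds and regulators of Slc9a3, 8 of 12 were detected on all arrays. Slc9a3r1, the scaffold that tethers the exchanger and Cftr under the brush border, ran from 16.11 to 16.64 over all mice. Sgk1, a kinase that raises sodium uptake, had the smallest unadjusted F p of those on all arrays, 0.120. It was 9.47 to 10.00 on feed B, 8.86 to 9.87 on feed K and 9.73 to 10.65 on feed G, and the feeds overlapped. Ahcyl1, detected on 8 arrays, had an unadjusted F p of 0.0244 (adjusted p = 0.894 in limma). It was 8.91 to 9.72 on feed B, below all other mice with 9.85 to 10.41, as in 1.86% of all genes. In the list of channels, Kcnn4, a basolateral potassium channel that supports chloride secretion, had the smallest unadjusted F p in limma of those detected on all arrays, 0.237, with values from 9.46 to 10.30. Of the channels detected on fewer arrays, Kcnk5, a potassium channel measured above noise on 7 arrays, had 0.0314 (adjusted p = 0.894).

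Bicarbonate supply and water transport showed no gene below an unadjusted F p of 0.05. Among genes detected on all arrays the smallest there were 0.341 for Slc4a4, the basolateral sodium bicarbonate cotransporter, and 0.106 for Vipr1, the receptor of the secretagogue vasoactive intestinal peptide. Car2, a carbonic anhydrase detected on 7 arrays, had 0.126, and its difference of K over B was 1.15 (SE 0.57, adjusted p = 0.797 in limma). Vipr1 was 9.12, 9.84 and 10.15 on feed B, 10.99, 10.60 and 10.81 on feed K and 10.15, 8.93 and 10.81 on feed G, and K exceeded B by 1.10 (SE 0.47, adjusted p = 0.786 in limma). All 3 mice of feed K were above all 3 of feed B, as in 6.26% of all genes, and the difference failed the correction.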

How the data were processed

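Jejunal RNA of 9 mice was hybridised to 9 single-colour 60-mer arrays. The authors deposited for each array the background-corrected signal intensity of 33012 probes, its signal-to-noise and quality flag scores, and a series table in linear units of signal, whose 297108 values are identical to the assay-normalized intensity. The submitters' processing notes name RMA without its role. Here, flagged spots (above 5000) were removed from the deposited intensity, the arrays were quantile normalized to each other, log2 was taken, and probes of 1 gene were averaged. Older symbols were matched by RefSeq accession (GRCm38.p6). Feeds were compared with limma 3.58.1 in R 4.3.3 (lmFit, eBayes, Benjamini-Hochberg at 0.05) over the 9652 genes detected on at least 3 arrays. The fit was tested on simulated data. Correlations used exact permutation over 362880 pairings in Python 3.11.15 with scipy 1.17.1. Promoter windows are RefSeq's. Alternatives were median scaling, the series table, other spot and gene filters, other tests and leaving out each mouse. The number of arrays limits the precision.

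Members and lists were chosen with earlier results of these data known. Named genes are the members, per pathway list those past adjusted p 0.05 or otherwise the gene with the smallest unadjusted F p among those detected on all 9 arrays, the brightest gene of marker lists, and the 2 genes most like each member. Slc9a3r1, Ahcyl1, Scnn1a, Scnn1g, Kcnk5, Car2, Bhlhe41, Arntl, Nfil3, Vil1 and the regional markers were named outside it, after their values were seen. A gene of the basolateral list that this rule names is not reported here.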

Additional observations from a re-analysis of the deposited data

Results flagged for a closer look

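Single mice stood apart from the other 8 in 3 of the 14 genes tested for it, by a gap to the nearest mouse that was a share of the whole range above Dixon's 95% limit for 9 mice. Chance flags about 1 gene in 20 at this limit. Slc26a6 was low in mouse 7 of feed B, with a log2 signal of 11.62 against 12.45 in the next mouse, a share of 0.539. Prkg2 was low in mouse 11 of feed G, with 9.60 against 10.43, a share of 0.529. Kcnn4 was high in mouse 8 of feed G, with 10.30 against 9.89, a share of 0.494.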

How the results depend on the processing

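Under every alternative run Atp1b1 was lowest on feed B, with K above it by 0.53 to 0.97 (log2) and G by 0.59 to 1.27, and none of the 7 members passed the adjusted test over feeds under any of them. At an unadjusted p under 0.05 the feed test found 1 member, against 2 under median scaling and 0 to 2 when single mice were left out, with 0 without mouse 7 and 2 without mouse 8 of feed B.

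Counts over all genes moved more. At an unadjusted p under 0.05, median scaling gave 1075 genes in the feed test, 1230 for K minus B and 1798 for G minus B, against 518, 609 and 554. Leaving out spots with a signal-to-noise below 1 gave 914, 987 and 1280, and 3 genes past the adjusted threshold in the feed test, 3 for G minus B and 3 for G minus K. Without a filter on dim genes the counts were 896, 987 and 976, with 672 for G minus K against 438. Over genes detected on all 9 arrays, where fewer genes were tested, they were 352 for K minus B and 356 for G minus B, with 1 gene past the adjusted threshold in the feed test and 1 for G minus B. The unmoderated F test also passed 1 gene. With single mice left out, the feed test found 378 to 963 genes unadjusted and 0 to 3 adjusted, K minus B 392 to 1095 and 0 to 10, G minus B 418 to 1039 and 0 to 3, and G minus K 282 to 603 unadjusted. The upper ends for the feed test, K minus B and G minus B came without mouse 10 of feed B. The causes of these shifts were not tested.

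The median SD of the members was 0.37, and 0.55 under median scaling and 0.49 in the series table. Of the 21 member pairs, 0 passed the adjustment, against 4 under median scaling, 1 without spots of signal-to-noise below 1, and 0 to 1 with single mice left out (1 without mouse 8 of feed B). The relations of Guca2a and Slc26a6 with regional markers were run under these settings after the data had been seen: Guca2a with Nr1h4 had r from 0.57, without mouse 11 of feed G, to 0.92, with Mep1a 0.69 to 0.91, and Slc26a6 with Gata4 0.56 to 0.80. With 9 arrays, only large differences could pass the correction. No paired analysis was possible, because the samples are separate animals and the labels name no pairs across feeds. The number 8 occurs in feeds B and G and the number 4 in feeds K and G, but the labels do not link these mice.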
